A study of Homo sapiens with 6 samples.

Results

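The 8 non-coding genes HCG11, HLA-F-AS1, HCG18, HCG20, HCG27, HCP5, HLA-DQB1-AS1 and HCG25 of the HLA region on chromosome 6 were followed in U-2OS cells, a human osteosarcoma line. They were taken by name from a deposited table of 35036 genes, and all 8 were present. The cells of all 6 libraries had received actinomycin D, which blocks transcription. A control siRNA (SiCtrl) was used for 3 of them and an siRNA against SFPQ, an RNA-binding protein of the nucleus, for the other 3 (SiSFPQ). These groups are written siCtrl and siSFPQ here. No library without actinomycin D was analysed here, so the comparison is one of the 2 siRNAs under the drug. Its dose and time are not given in the sources used here.

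The HLA region carries the class I and class II genes, whose proteins present peptides to T cells. Class I molecules are made by most cells, and class II molecules mainly by antigen-presenting cells of the immune system. Non-coding genes lie between these genes or run antisense over them, and the prefix HCG stands for HLA complex group, a naming series for genes of the region. HLA-F-AS1 is antisense at HLA-F, a non-classical class I gene, and HLA-DQB1-AS1 is antisense at HLA-DQB1, which encodes the beta chain of the class II molecule DQ. HCP5 lies between MICA and MICB, which encode stress-induced ligands of a receptor on natural killer cells. SFPQ is a partner of the NEAT1 RNA in nuclear paraspeckles, and which of these RNAs it binds was not measured.

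Of the 8 genes, 2 rose in siSFPQ (HCG18 and HCG11), 2 fell (HLA-F-AS1 and HLA-DQB1-AS1), 3 were not called (HCG20, HCG27 and HCG25) and HCP5 had too few counts for the test. A gene is called here when the quasi-likelihood test of edgeR, fitted over the whole table, gave a Benjamini-Hochberg adjusted p under 0.05. Of all 6325 genes tested, 48.4% were called, 24.5% higher and 24.0% lower, so 4 of 7 is near the share of the table. The CPM of the 2 groups did not overlap for the 4 called genes, as for 54.0% of all genes tested. The members' median log2 fold change was -0.04, beside 0.01 over all genes tested.

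Promoters of the 4 called genes are shown first, because these genes went in opposite directions and the letters let their starts be compared. RefSeq sequences of build GRCh38.p14 were matched for 8 of 8 genes and run from 250 bases before the start to 50 bases after it, 5′ to 3′ on the gene's strand. Capitals mark matches, on either strand, to 6 motifs. These were the core of the interferon-stimulated response element (GAAA, 2 free bases and GAAA again), the gamma-activated site TTCNNNGAA, the box CCAAT, the box named TATAAA for its letters, the GC box GGGCGG and the cyclic AMP response element TGACGTCA. No matches of different motifs overlapped in these 4 promoters. HCG18 is at chr6:30327107-30327406 on the minus strand, HCG11 at chr6:26521456-26521755 on the plus strand, HLA-F-AS1 at chr6:29749000-29749299 on the minus strand and HLA-DQB1-AS1 at chr6:32659630-32659929 on the plus strand.
HCG18: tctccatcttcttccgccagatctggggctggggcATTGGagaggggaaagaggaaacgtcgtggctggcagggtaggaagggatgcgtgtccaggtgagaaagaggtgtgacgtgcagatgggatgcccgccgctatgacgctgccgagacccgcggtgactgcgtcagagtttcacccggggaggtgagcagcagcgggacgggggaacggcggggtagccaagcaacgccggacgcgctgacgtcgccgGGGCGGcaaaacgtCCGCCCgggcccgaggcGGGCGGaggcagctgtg
HCG11: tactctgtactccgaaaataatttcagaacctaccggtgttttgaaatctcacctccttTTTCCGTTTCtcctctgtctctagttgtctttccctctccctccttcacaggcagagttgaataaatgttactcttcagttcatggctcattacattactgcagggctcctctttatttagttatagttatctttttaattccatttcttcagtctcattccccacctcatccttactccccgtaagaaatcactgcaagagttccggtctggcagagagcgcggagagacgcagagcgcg
HLA-F-AS1: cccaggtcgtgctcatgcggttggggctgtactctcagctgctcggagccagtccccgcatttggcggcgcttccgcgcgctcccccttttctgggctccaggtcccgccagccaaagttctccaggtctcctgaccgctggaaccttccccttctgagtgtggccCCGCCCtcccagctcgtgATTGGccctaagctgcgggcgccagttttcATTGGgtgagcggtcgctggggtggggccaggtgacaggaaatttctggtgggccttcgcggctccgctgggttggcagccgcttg
HLA-DQB1-AS1: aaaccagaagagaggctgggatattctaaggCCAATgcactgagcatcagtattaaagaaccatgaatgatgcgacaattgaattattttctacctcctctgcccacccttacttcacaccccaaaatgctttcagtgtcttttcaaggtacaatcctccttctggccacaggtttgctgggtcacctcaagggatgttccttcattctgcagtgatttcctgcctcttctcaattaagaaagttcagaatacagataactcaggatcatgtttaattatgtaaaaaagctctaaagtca

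The HCG18 promoter held 3 GC boxes and 1 CCAAT, and its GC content was 67.3%. That of HLA-F-AS1 held 1 GC box and 2 CCAAT, with a GC content of 66.0%. The HCG11 promoter, with a GC content of 44.3%, held 1 match to the interferon-stimulated response element core and to no other motif searched. HLA-DQB1-AS1 had 1 CCAAT and a GC content of 41.0%. The median GC content over all 35116 promoters was 58.7%. Over those promoters, 3.57% held the interferon-stimulated response element core, 34.6% CCAAT, 45% the GC box, 11.5% TATAAA, 7.66% the gamma-activated site and 1.85% the cyclic AMP response element. A match is only a match of letters. The RefSeq start lay 245 bases from the start listed in the table for HCG18, 3 bases for HCG11 and 0 bases for HLA-DQB1-AS1. For HLA-F-AS1 it lay 79447 bases away, so the promoter shown may not be that of all the RNA counted.

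Table totals were 1385532 to 1533974 counts in siCtrl and 1298658 to 1599566 in siSFPQ. Of the 13886 genes shared with GENCODE 29 only 50 are protein-coding there, so most coding RNA is outside the table and these totals are part of each library. CPM, the library-scaled count, is relative to the sum over the table, scaled by TMM. Counts of SFPQ were not analysed here, and no check of the knockdown was made. The labels do not say whether the 3 libraries of a group came from separate cultures, so the p-values measure the spread between these samples, which may be technical. The 8 genes together took 0.0769% to 0.0827% of the counts in siCtrl and 0.0893% to 0.0919% in siSFPQ.

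HCG18, a long antisense transcript of the class I stretch (ENSG00000231074, chromosome 6, 30223522 to 30327401, minus strand), rose. Its siCtrl libraries held 216, 255 and 236 CPM and its siSFPQ libraries 402, 396 and 388 CPM. All siSFPQ libraries stood above all siCtrl libraries, with a smaller spread. The means were 236 ± 19.6 and 395 ± 6.94 CPM (SD, n = 3 each), and the log2 fold change was 0.74 ± 0.07 (SE, edgeR, adjusted p = 1.4e-24). It ranked 804 from the highest of 6325 fold changes. In RNA from whole cultures, fewer cells with an RNA and less of it per cell cannot be told apart.

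HCG18 overlaps coding exons little in GENCODE 29: 517 of its 13918 exonic bases there (3.71%) lay on exons of TRIM39, a ubiquitin ligase gene on the other strand. The table lists a wider span and an exonic length of 20038 bases. The sole other row of the table over it was HLA-L, a class I pseudogene on the plus strand, which went the other way. HLA-L held 181, 198 and 179 counts in siCtrl and 132, 162 and 165 in siSFPQ, and its log2 fold change was -0.37 (edgeR, adjusted p = 9.7e-04). The count of HCG18 over that of HLA-L, a ratio within a library that no scaling can alter, was 1.67, 1.90 and 1.76 in siCtrl and 3.98, 3.93 and 3.64 in siSFPQ. The groups did not overlap, and an exact two-sided permutation test gave p = 0.1, the smallest that 3 against 3 libraries allow. This ratio and 4 others below were chosen after the values were seen, and the p adjusted over the 5 was 0.1 for each.

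HCG11, at the outer end of the class I side (ENSG00000228223, chromosome 6, 26521709 to 26527149, plus strand), was higher in siSFPQ by a smaller margin. Its levels were 20.0, 28.5 and 29.9 CPM in siCtrl and 44.3, 37.4 and 33.0 CPM in siSFPQ. The groups did not overlap, but the highest siCtrl and lowest siSFPQ libraries lay close together. Means were 26.1 ± 5.39 and 38.2 ± 5.71 CPM (SD, n = 3 each), a log2 fold change of 0.54 ± 0.19 (SE, edgeR, adjusted p = 0.010). Leaving out siCtrl replicate 1 ended the call (adjusted p = 0.13), as did leaving out siSFPQ replicate 1 (adjusted p = 0.080) or using DESeq2 (adjusted p = 0.17). No coding exon of GENCODE 29 overlapped HCG11. Its listed exonic length of 5696 bases exceeded its listed span of 5441 bases, so the listed coordinates may not hold all that was counted.

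Across the start of HCG11 runs ENSG00000300236 on the minus strand, a row whose listed span also covers exons of the butyrophilin genes BTN2A1 and BTN1A1. It held 18, 20 and 8 counts in siCtrl and 40, 48 and 42 in siSFPQ and rose by 1.41 on the log2 scale (edgeR, adjusted p = 5.1e-08). HCG11 held 1.56, 2.10 and 5.00 counts for each count of ENSG00000300236 in siCtrl and 1.45, 1.25 and 1.21 in siSFPQ (exact two-sided permutation test, p = 0.1). Another overlapping row, ENSG00000300261, stayed under the filter at 6.16 CPM in both groups. The nearest tested row outside, BTN2A3P, a butyrophilin pseudogene, did not pass the test (log2 fold change -0.39, edgeR, adjusted p = 0.14).

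Reads of overlapping rows may be shared. The labels describe a stranded kit. Among rows nested on opposite strands, with at least 1000 counts in total each, 3 pairs had totals within 1% of each other. Those totals were 29388 and 29379, 5510 and 5494, and 1434 and 1443 counts. The number of such pairs that differed by more is not given here. Without that number the 3 pairs alone do not settle whether counting used the strand, which was not tested further. How much of the change at HCG11 and ENSG00000300236 is the same reads was not tested.

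**Figure D1:**
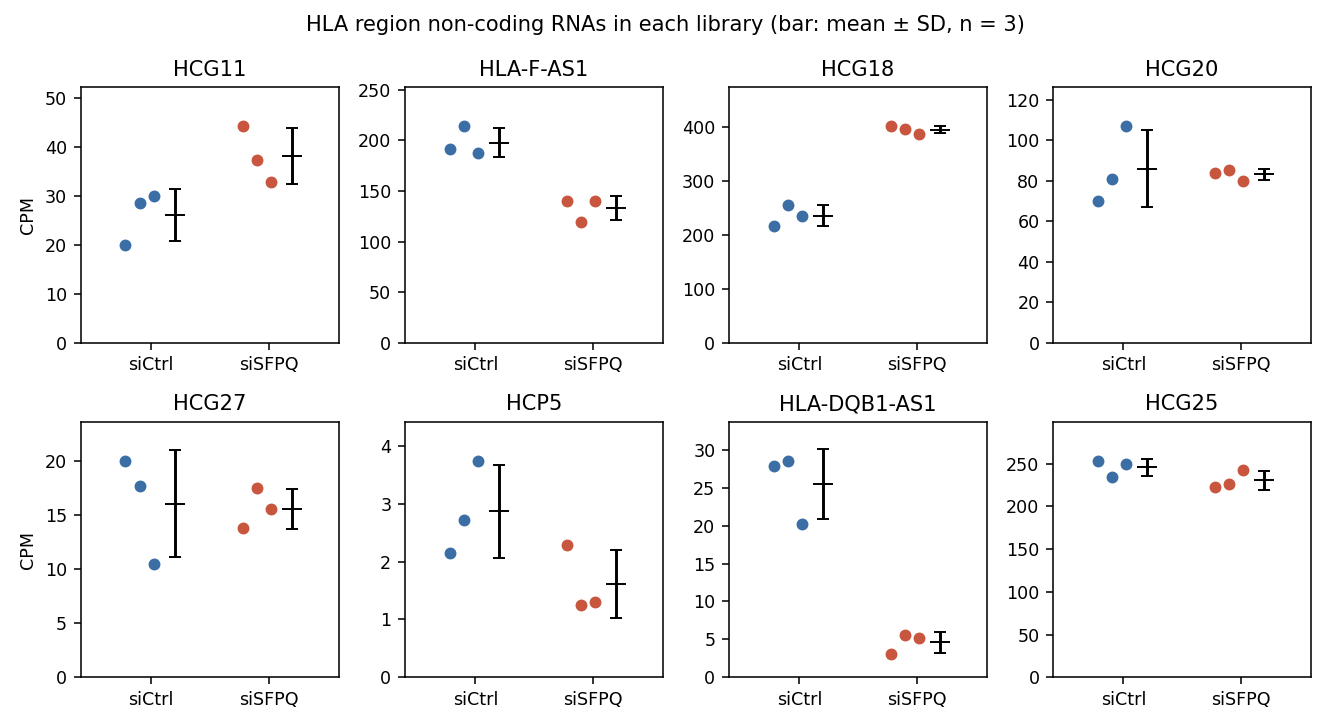
CPM (linear axis from 0) of each of the 8 genes in the 3 siCtrl and 3 siSFPQ libraries, with the mean ± SD beside the points. HCG18 and HCG11 stand higher and HLA-F-AS1 and HLA-DQB1-AS1 lower in all siSFPQ libraries than in any siCtrl library, while the groups overlap for the other 4.

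HLA-F-AS1 (ENSG00000214922, chromosome 6, 29707518 to 29828496, minus strand) fell. It stood at 192, 214 and 188 CPM in siCtrl and at 140, 120 and 140 CPM in siSFPQ. Every siSFPQ library was below every siCtrl library. The means were 198 ± 14.1 and 133 ± 11.8 CPM (SD, n = 3 each), and the log2 fold change was -0.58 ± 0.09 (SE, edgeR, adjusted p = 6.7e-10). HCG18 and HLA-F-AS1 thus moved apart within the class I stretch: the count of the first over the second was 1.13, 1.19 and 1.25 in siCtrl and 2.87, 3.31 and 2.77 in siSFPQ (exact two-sided permutation test, p = 0.1).

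In GENCODE 29, 535 of 4179 exonic bases of HLA-F-AS1 (12.8%) lay on exons of HLA-F. The listed span is far longer, at 120979 bases, with a listed exonic length of 15205 bases. It holds 4342 exon bases of HLA-F and also reaches exons of HLA-G, a class I gene known from the placenta. How many of those bases lie on the exons counted is not known. If counting did not use the strand, which is not known either, reads of HLA-F can be part of the counts of HLA-F-AS1. HLA-V, a class I pseudogene inside that span, did not pass the test, with 120, 114 and 125 counts in siCtrl and 111, 126 and 124 in siSFPQ (log2 fold change -0.08, edgeR, adjusted p = 0.62). The count of HLA-F-AS1 over that of HLA-V lay between 2.01 and 2.76 in siCtrl and between 1.52 and 1.75 in siSFPQ (exact two-sided permutation test, p = 0.1). The other 3 overlapping rows, ENSG00000272236, ENSG00000285761 and ENSG00000310484, held at most 5 counts in any library.

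HLA-DQB1-AS1 (ENSG00000223534, chromosome 6, 32659880 to 32660729, plus strand) fell furthest. It had 39, 42 and 27 counts in siCtrl and 4, 9 and 8 in siSFPQ, which is 27.8, 28.5 and 20.2 CPM against 3.05, 5.61 and 5.17 CPM. The lowest siCtrl library held several times the level of the highest siSFPQ library. Means were 25.5 ± 4.62 and 4.61 ± 1.37 CPM (SD, n = 3 each), a log2 fold change of -2.42 ± 0.30 (SE, edgeR, adjusted p = 1.9e-14). It ranked 8 from the lowest of 6325 fold changes, and 25 genes (0.395%) were called with a fall of at least 2 on the log2 scale. Counts this low make the size of the fall less certain than its direction: the 95% interval ran from -3.02 to -1.83. That interval rests on an SE derived from the test statistic and may be too narrow at such counts.

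HLA-DQB1-AS1 is short, with 552 exonic bases, of which 241 (43.7%) lay on exons of HLA-DQB1 on the other strand. If counting did not use the strand, which is not known, reads of the coding gene can be part of its counts. HLA-DQB1 itself was not analysed here. No other row overlapped it, and of the 6 rows within 100 kb none passed the low-count filter. The class II pseudogene HLA-DRB6 held 2, 1 and 0 counts in siCtrl and 0 in each siSFPQ library, and ENSG00000299747 over HLA-DRA had 2.16 and 1.28 CPM, also under the filter. The count of HLA-DQB1-AS1 over that of HCG25, the other class II side member, was 0.110, 0.122 and 0.0811 in siCtrl and 0.0137, 0.0247 and 0.0213 in siSFPQ (exact two-sided permutation test, p = 0.1).

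Class II genes mark immune cells, so 7 non-coding genes known from leukocytes were read beside HLA-DQB1-AS1. Only 2 of the 7 passed the filter, and both fell, where 24.0% of all genes tested were called lower: LINC00926 by 1.13 (edgeR, adjusted p = 8.7e-11) and ITGB2-AS1 by 1.49 on the log2 scale (edgeR, adjusted p = 8.2e-08). The summed level of the 7 was 86.3 to 97.3 CPM in siCtrl and 38.1 to 42.8 CPM in siSFPQ. Most of that sum came from the same 2 genes, so it adds little to their falls. LINC00926 averaged 59.0 CPM in siCtrl and 27.0 in siSFPQ, and ITGB2-AS1 25.4 and 9.03 CPM. MIR142HG, MIR223HG and IFNG-AS1 had 0 counts in every library, which allows up to 3 counts in each, while MIR155HG and LINC00861 were under the filter. The part of such genes in the fall of HLA-DQB1-AS1 was not tested. Another 4 genes were listed for mesenchymal cells, the lineage of osteosarcoma, and whether they are restricted to such cells was not tested. DNM3OS and MIR100HG were not called, at 17.0 and 41.5 CPM in siCtrl. MIR22HG fell by 1.02 on the log2 scale (edgeR, adjusted p = 1.1e-12), and MEG3 averaged 0.487 CPM in siCtrl and 0 in siSFPQ.

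**Figure D2:**
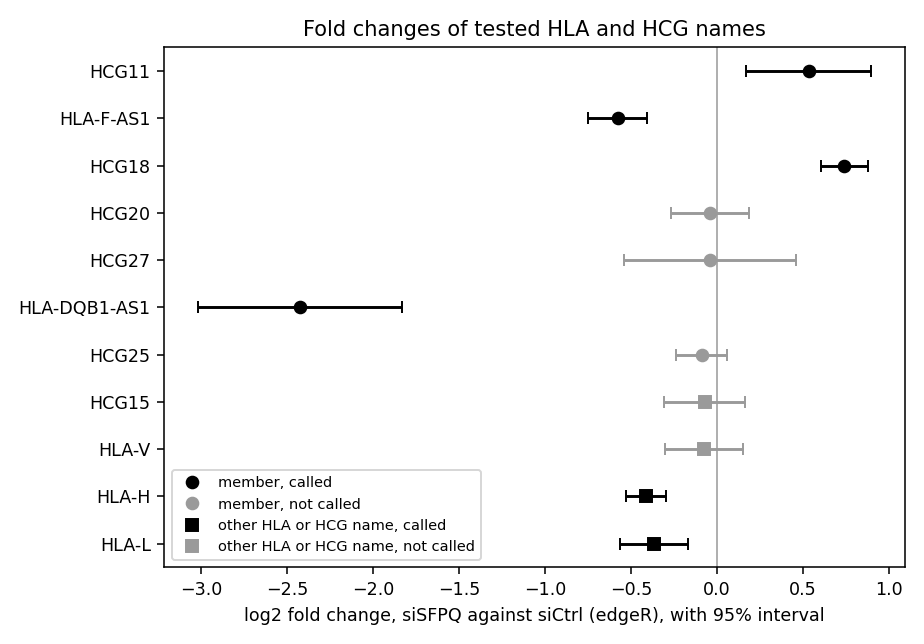
Log2 fold change of siSFPQ against siCtrl (edgeR) for the 7 tested genes (circles) and the other 4 tested HLA or HCG names (squares), with 95% intervals; black points were called and grey ones were not. HLA-DQB1-AS1 at -2.42 lies far from the others, which run from -0.58 for HLA-F-AS1 to 0.74 for HCG18.

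HCG20, HCG27 and HCG25 did not pass the test. HCG25 (ENSG00000232940, chromosome 6, 33248510 to 33260681, plus strand) had 253, 234 and 249 CPM in siCtrl and 222, 227 and 243 CPM in siSFPQ, with overlapping groups. Its log2 fold change was -0.09, with a 95% interval of -0.24 to 0.06 (edgeR, adjusted p = 0.35). In GENCODE 29, 632 of its 1374 exonic bases (46%) lay on exons of VPS52, a gene of vesicle tethering on the other strand. The listed exonic length of HCG25 is 6591 bases, and its listed span holds 947 exon bases of VPS52. The share of 46% may therefore not hold for what was counted. The overlapping row ENSG00000272217 was not called either (-0.12, edgeR, adjusted p = 0.64). Its tested neighbours outside went opposite ways: ENSG00000288751 over RING1, a Polycomb gene, rose by 0.70 (edgeR, adjusted p = 1.1e-05), and ENSG00000289100 over TAPBP, which encodes the class I loading chaperone tapasin, fell by 0.51 (edgeR, adjusted p = 5.0e-20).

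HCG20 (ENSG00000228022, chromosome 6, 30743790 to 30792246, plus strand) had 69.9, 80.9 and 107 CPM in siCtrl and 84.0, 85.3 and 80.2 CPM in siSFPQ. The siCtrl libraries spread widely and enclosed all 3 siSFPQ libraries. The log2 fold change was -0.04, with an interval of -0.27 to 0.18 (edgeR, adjusted p = 0.79). Its listed span reaches exons of IER3, a stress-induced survival gene, but its GENCODE 29 exons do not. IER3-AS1, which ends 54 bases away, was not called (0.10, edgeR, adjusted p = 0.30), nor was LINC00243 on the other side (0.32, edgeR, adjusted p = 0.47). The 3 overlapping rows, ENSG00000296065, ENSG00000296082 and ENSG00000298801, held at most 2 counts in any library.

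HCG27 (ENSG00000206344, chromosome 6, 31197715 to 31211696, plus strand) had 20.0, 17.7 and 10.5 CPM in siCtrl and 13.7, 17.4 and 15.5 CPM in siSFPQ. Again the siCtrl libraries enclosed the siSFPQ ones. The log2 fold change was -0.04, and at these counts the interval of -0.54 to 0.46 leaves room for a moderate change either way (edgeR, adjusted p = 0.91). No coding exon overlapped it. ENSG00000272501, across its start on the minus strand, was called higher at 0.53 (edgeR, adjusted p = 0.031). Leaving out siCtrl replicate 1 ended that call (adjusted p = 0.085), as did leaving out siCtrl replicate 2 (adjusted p = 0.12) or siSFPQ replicate 1 (adjusted p = 0.093). So did using no filter (adjusted p = 0.099) or DESeq2 (adjusted p = 0.24). ENSG00000271821, also overlapping, was under the filter at 3.82 and 2.24 CPM. On the telomeric side ENSG00000298457 was not called (0.003, edgeR, adjusted p = 1.0). On the other side ENSG00000298396, whose listed span reaches exons of HLA-C and HLA-B, fell by 0.42 (edgeR, adjusted p = 1.6e-15).

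HCP5 (ENSG00000206337, chromosome 6, 31463144 to 31494470, plus strand) was near the limit of detection. It had 3, 4 and 5 counts in siCtrl and 3, 2 and 2 in siSFPQ, and the groups overlapped. The ratio of siSFPQ to siCtrl was 0.550, with a 95% interval of 0.184 to 1.52 that covers counting error only, so a difference was not detectable at this depth. Both overlapping rows, ENSG00000288587 and MICB-DT, were as low, with at most 6 counts in a library. On the MICA side the nearest tested row, MICA-AS1, rose from 44.1 ± 4.52 to 71.9 ± 9.88 CPM (SD, n = 3 each; log2 fold change 0.71, edgeR, adjusted p = 1.4e-06). On the MICB side ENSG00000299760, over the RNA helicase gene DDX39B, was not called (-0.06, edgeR, adjusted p = 0.62).

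Levels were compared between the genes per kilobase of listed exonic length. In siCtrl the order was HCG20 at 48.3 ± 10.7, HLA-DQB1-AS1 at 46.2 ± 8.37, HCG25 at 37.3 ± 1.51, HLA-F-AS1 at 13.0 ± 0.927, HCG18 at 11.8 ± 0.979, HCG11 at 4.59 ± 0.945, HCG27 at 3.39 ± 1.05 and HCP5 at 0.231 ± 0.0654 CPM per kb (SD, n = 3). Libraries overlapped between HCG20 and HLA-DQB1-AS1, HLA-DQB1-AS1 and HCG25, HLA-F-AS1 and HCG18, and HCG11 and HCG27 in siCtrl. Both genes of a pair come from the same libraries: HLA-F-AS1 was above HCG18 in 3 of 3 of them, HLA-DQB1-AS1 above HCG25 in 2, HCG11 above HCG27 in 2 and HCG20 above HLA-DQB1-AS1 in 1. For these last 3 pairs the order was thus not the same in every library. In siSFPQ HCG18 came next after HCG20 and HCG25 at 19.7 ± 0.346 CPM per kb, above HLA-F-AS1 at 8.76 ± 0.775 with no overlap. HLA-DQB1-AS1 came to 8.35 ± 2.47 CPM per kb, which overlapped with HLA-F-AS1 above it and with HCG11 at 6.71 ± 1.00 below it. The order rests on the listed lengths. Those of HCG25, HCP5 and HLA-F-AS1, at 6591, 12387 and 15205 bases, are far above the 1374, 3138 and 4179 exonic bases of GENCODE 29. With the lengths of GENCODE 29, an alternative added after the data were seen, HCG25 came first in siCtrl at 179 ± 7.23 CPM per kb, before HCG20 at 62.7 ± 13.9 and HLA-F-AS1 at 47.4 ± 3.37. HLA-F-AS1 also stayed above HCG18 in siSFPQ on those lengths, at 31.9 ± 2.82 against 28.4 ± 0.499 CPM per kb, so which of the 2 was higher there depends on the length used.

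**Figure D3:**
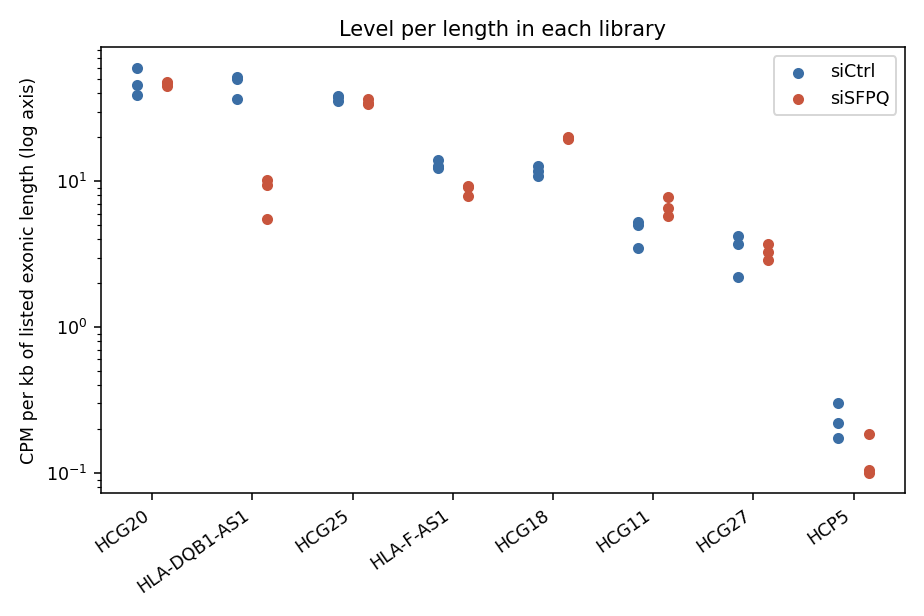
Level of each gene in each library as CPM per kb of listed exonic length, on a log axis, with genes ordered by their siCtrl mean. HCP5 lies far below the others, and HLA-DQB1-AS1 shows the widest gap between siCtrl (46.2 on average) and siSFPQ (8.35).

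The rest of the region was then read beside these genes. The 256 other rows touching 25 to 34 Mb of chromosome 6 included 77 tested ones, of which 20 rose and 20 fell (51.9% called, against 48.4% of all genes tested). Their median log2 fold change was -0.02. From 25 to 29 Mb, where HCG11 lies, 9 of 26 rose and 3 fell. From 29 to 32 Mb, around HLA-F-AS1, HCG18, HCG20, HCG27 and HCP5, 7 of 30 rose and 11 fell. From 32 to 34 Mb, around HLA-DQB1-AS1 and HCG25, 4 of 21 rose and 6 fell. On the rest of chromosome 6, 49 of 192 rose and 38 fell. Other genes of the region thus went both ways in each stretch.

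**Figure D4:**
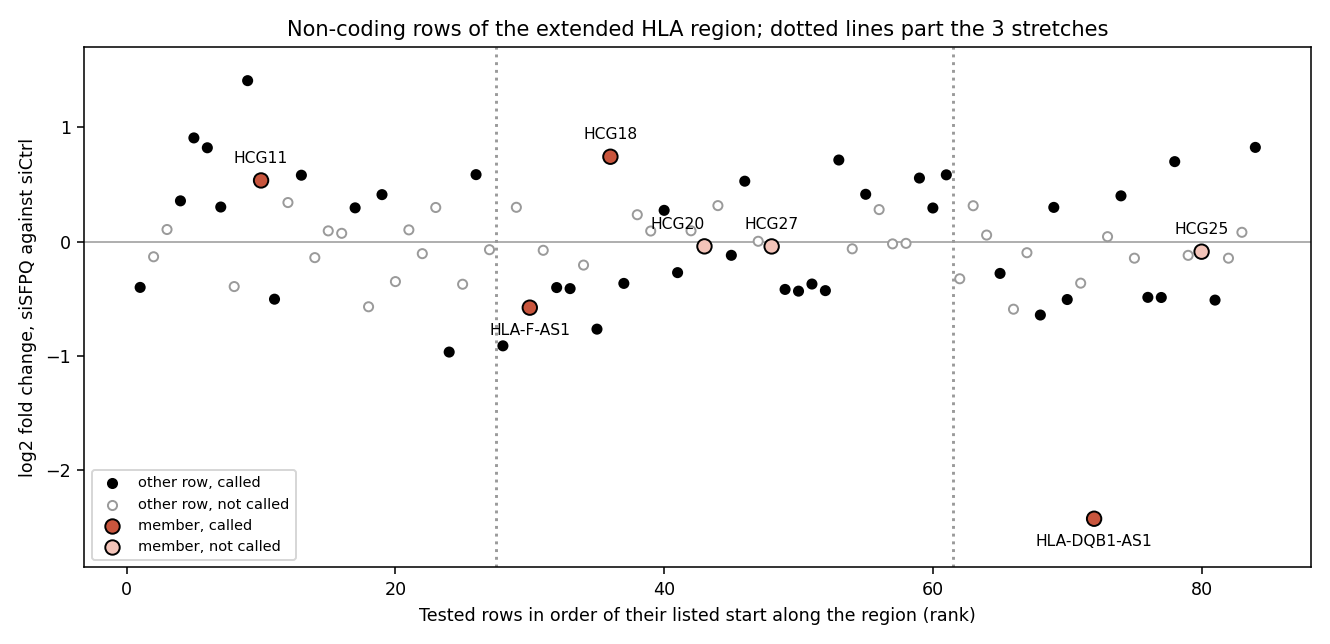
Log2 fold change of siSFPQ against siCtrl for the 84 tested rows of the region in order of their start, with the 7 tested genes named; dotted lines part the stretches of 25 to 29, 29 to 32 and 32 to 34 Mb. Rises and falls are mixed along the region, and only HLA-DQB1-AS1 lies below -1 with all 6 libraries (LINC01623, at -0.97, reaches -1.76 without siSFPQ replicate 1).

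The 5 largest rises among the called rows of the region with a mean of at least 5 CPM were ENSG00000300236 (1.41), ENSG00000289117 (0.91), ITPR3-AS1 (0.82), H2BC6-AS1 at a histone gene (0.82) and MICA-AS1 (0.71), as log2 fold changes. HCG18, at 0.74, lay within that range. The 5 largest falls were those of LINC01623 (-0.97), ENSG00000309476 over the GABA receptor gene GABBR1 (-0.91), ENSG00000290574 (-0.77), ENSG00000301753 over AGPAT1 (-0.64) and ENSG00000289100 over TAPBP (-0.51). HLA-DQB1-AS1 fell further than any of them. Several of these calls were fragile (edgeR with a library left out, or DESeq2). ENSG00000289117 was no longer called with siCtrl replicate 1 (adjusted p = 0.16), siCtrl replicate 3 (adjusted p = 0.058) or siSFPQ replicate 3 (adjusted p = 0.14) left out. Its log2 fold change was 0.59 without siCtrl replicate 1 and 1.42 without siCtrl replicate 2. Without siSFPQ replicate 1 or siSFPQ replicate 2 the fold change of LINC01623 was -1.76 or -0.59, so its place among the falls rests on single libraries. It was no longer called with siCtrl replicate 2 (adjusted p = 0.087) or siSFPQ replicate 2 (adjusted p = 0.10) left out. ENSG00000301753 was not called with siCtrl replicate 1 left out (adjusted p = 0.11). With DESeq2 the adjusted p was 0.22 for ENSG00000289117, 0.19 for LINC01623, 0.17 for ENSG00000301753 and 0.085 for H2BC6-AS1.

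Of 10 other genes with HLA or HCG names, 4 were tested, and 2 fell. Over all genes tested 48.4% were called and 24.0% called lower, so 2 of 4 called is near the share of the table. The 2 were HLA-L and HLA-H, a class I pseudogene that went from 639 ± 16.4 to 480 ± 21.5 CPM (SD, n = 3 each; log2 fold change -0.41, edgeR, adjusted p = 4.2e-11), while HLA-V and HCG15 (-0.07, edgeR, adjusted p = 0.65) were not called. Pseudogenes of class I resemble the coding class I genes closely, and how reads were shared between such copies is not given in the sources used here. The values of HLA-H, HLA-L and HLA-V are uncertain for that reason. Of the 6 untested ones, HCG9 held 19 and 21 counts in the 2 groups, HCG14 1 and 6, HCG22 2 and 2, HLA-DRB6 3 and 0, and the other 2, HCG21 and HCG24, held 0.

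Class I genes are targets of interferon, so a list of 12 interferon-linked non-coding genes was read as well. The table held 10 of them and 5 were tested, of which 3 rose and none fell, against 24.5% higher over all genes tested. The 3 were LUCAT1, a brake on interferon responses (0.61, edgeR, adjusted p = 3.3e-12), BISPR, which shares a promoter region with the antiviral gene BST2 (0.61, edgeR, adjusted p = 2.4e-08), and PSMB8-AS1. The last lies in the class II stretch over exons of PSMB8, PSMB9 and TAP1, genes of peptide supply for class I, and went from 249 ± 8.06 to 330 ± 11.9 CPM (SD, n = 3 each; 0.40, edgeR, adjusted p = 1.6e-07). LINC00513 (-0.18, edgeR, adjusted p = 0.50) and GBP1P1 (-0.08, edgeR, adjusted p = 0.86) were not called. NRIR, a negative regulator of interferon responses, was under the filter with 13 counts in siCtrl and 2 in siSFPQ, and their ratio was 0.145 (95% interval for counting error, 0.0159 to 0.641). Over the 5 tested genes the median log2 fold change was 0.40, beside 0.01 over all genes tested. In the same libraries HCG18 and HCG11 rose, while HLA-F-AS1 and HLA-DQB1-AS1 fell. A part of interferon in these changes was not tested.

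Elsewhere in the table, likeness to each gene was measured as the root mean square difference of log2 CPM, centred over the 6 libraries, among genes of at least 5 CPM that do not overlap it. Nearest to HCG18 were ENSG00000295132 on chromosome 17 (0.025), ENSG00000289421 (0.044) and LINC01943 (0.052). Nearest to HLA-F-AS1 was ENSG00000300534 on chromosome 12 (0.050), and nearest to HCG11 was KANSL1L-AS1 on chromosome 2 (0.052). For HLA-DQB1-AS1 the closest was ALMS1-IT1 on chromosome 2, at 0.22, the widest distance among the 7 tested members. HCG25 was closest to ENSG00000302174 (0.035), HCG20 to ENSG00000295221 (0.058) and HCG27 to ENSG00000289164 (0.071). All these values come from the same 6 libraries and were picked from at least 6318 candidates for each gene, so they are a description.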

How the data were processed

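Poly(A)-selected RNA of 6 U-2OS libraries was sequenced with a stranded kit, per the labels' protocols. The authors deposited unnormalised whole read counts for each gene, per the file headers. Aligner, counter, annotation and build: not given in the sources used here. GENCODE 29 (GRCh38) shares 13886 identifiers with the table, 13874 of them at overlapping positions, so listed coordinates are read as GRCh38. Overlap with coding exons uses GENCODE 29 exons, or the listed span where that release lacks the gene.

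Fits used R 4.3.3 and the robust quasi-likelihood test of edgeR 4.0.16, two-sided, with TMM factors, the filterByExpr filter, no covariate and Benjamini-Hochberg adjustment over 6325 genes. The SE is the fold change divided by the square root of F, and 95% intervals are built on it. The fit was tested on simulated counts. The ratio for HCP5 uses summed counts and an exact (Clopper-Pearson) interval. Alternatives were RLE, upper-quartile and plain scaling, 2 other filters, DESeq2 1.42.0, limma-voom (limma 3.58.1), a replicate block and each library left out; GENCODE 29 lengths were added later. Libraries of a group differed beyond sampling noise (chi-square per degree of freedom from 1.19 to 1.33, largest p 4e-32), and none was a duplicate.

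The members and lists were chosen with earlier results of these data known. Named genes are the members, rows overlapping them, the nearest tested row on each side within 100 kb, the 5 largest called rises and falls of the region, the tested genes of the lists and, for likeness, the nearest 3 or fewer. For HLA-F-AS1 the rows outside its span, on both sides, are not reported here.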

Additional observations from a re-analysis of the deposited data

How the results depend on the processing

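Of 98 values of the 7 tested genes under alternatives, 89 kept direction and side of the threshold and 3, all for HCG11, lost the call. The other 6 changed sign without being called, and no called value changed sign: HCG20, at -0.04, was 0.02 with plain totals and 0.12 without siCtrl replicate 3, and HCG27, at -0.04, was 0.02 with plain totals and -0.27 to 0.13 with a library left out. HCG11 was 0.54 with DESeq2 (adjusted p = 0.17) and 0.37 to 0.63 with a library left out; the cause was not tested. Genes called higher among the members were therefore 1 with DESeq2 and 1 to 2 with a library left out. HCG18 ran from 0.68 to 0.81, HLA-F-AS1 from -0.63 to -0.50 and HLA-DQB1-AS1 from -2.58 to -2.23 over all alternatives. DESeq2 called 858 higher and 904 lower of all genes and 9 higher of the other rows of the region, fewer than edgeR; the cause was not tested. The other rows read gave 518 values, of which 486 kept direction and side of the threshold and 15 lost the call. The other 17, of 6 rows not called (DNM3OS, ENSG00000272217, ENSG00000298457, ENSG00000299760, GBP1P1 and MIR100HG), changed sign and were not called there either.

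Same-numbered libraries deviated from their group means with correlations of -0.0047, 0.00097 and 0.010. Counting noise at low counts can keep such correlations near 0, so they cannot decide whether replicate numbers pair the libraries. The replicate block, at 1535 higher and 1515 lower genes, called the same numbers of members, 2 higher and 2 lower. The filter of at least 1 CPM in 3 libraries kept more genes (11651) than filterByExpr, and HCP5, tested there, was not called (edgeR, adjusted p = 0.42), nor was it with no filter (adjusted p = 0.57). Low counts limit HCP5, HCG27 and the size of the fall of HLA-DQB1-AS1.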

Other observations

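Rows whose listed spans cover exons of the class I genes HLA-B and HLA-C were read after their values were seen. The coding genes themselves were not analysed here. The 3 tested rows were abundant and fell, where 24.0% of all genes tested were called lower. ENSG00000298426, over HLA-B, went from 2190 ± 111 to 1694 ± 44.7 CPM (SD, n = 3 each; log2 fold change -0.37, edgeR, adjusted p = 2.4e-14). ENSG00000288813, over HLA-C, went from 1540 ± 101 to 1140 ± 17.7 CPM (-0.43, edgeR, adjusted p = 2.2e-17). ENSG00000298396, which reaches both, changed by -0.42 (edgeR, adjusted p = 1.6e-15). ENSG00000285647, whose listed span lies within that of ENSG00000298426, had no such overlap by this rule and is left out of the 3. It was less abundant, at 110 CPM in siCtrl, and changed by -0.43 (edgeR, adjusted p = 3.5e-04). The 3 overlapping rows share parts of their spans or the same genes and may hold the same reads. ENSG00000298426 lists 335 exonic bases and ENSG00000298396 lists 237, in far longer spans, so whether their exons lie on coding exons is not known. Where a row's exons do lie on coding exons, its counts cannot be told from those of the coding gene.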
